A study of Mus musculus with 6 samples.

Results

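NRF2, the transcription factor encoded by Nfe2l2, and its antioxidant target genes were followed in fibroadipogenic progenitors (FAPs), mesenchymal cells of skeletal muscle that can become fibroblasts or adipocytes. The members were chosen by gene symbol and comprise Nfe2l2, its inhibitor Keap1 and the targets Gclc, Gclm, Slc7a11, Txnrd1, Srxn1, Nqo1, Hmox1 and Me1. All 10 were among the 16894 genes with values, and all 10 passed the filter on low values. FAPs had been taken from muscle of young C57BL/6 mice (3 to 6 months old and of both sexes, per the methods of the study) as cells negative for CD45, CD31 and α7-integrin and positive for SCA-1, and were grown as primary cultures at 3% oxygen with 20% serum and 10 ng/mL of bFGF. Senescent FAPs had received 20 μM of etoposide, a topoisomerase II poison that breaks DNA, for 48 h and had then been kept for 5 days without the drug. Control FAPs carry the label non-senescent, and no vehicle is named for them. RNA of 3 control and 3 senescent cultures was sequenced. Whether the replicates came from separate mice is not stated, so p values measure the spread between these cultures.

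NRF2 is held at a low level in resting cells by KEAP1, an adaptor that brings it to the CUL3 ubiquitin ligase for destruction. Electrophiles and oxidants modify cysteines of KEAP1, and the NRF2 that then accumulates enters the nucleus, pairs with a small MAF protein and binds antioxidant response elements (AREs). Its best known targets make glutathione, reduce thioredoxin and peroxiredoxins, detoxify quinones and heme, and supply NADPH. NRF2 is controlled largely at the level of the protein, which was not measured here, and several of its targets also answer to other factors, such as BACH1 at Hmox1 and ATF4 at Slc7a11.

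Libraries held 41412179 to 59912520 reads on genes, and values are given as CPM, reads per 1000000 of the effective library size. Limma was run on log2(CPM + 0.5) for 14776 genes, and a gene was called higher or lower in senescent FAPs at a Benjamini-Hochberg adjusted p under 0.05. On the log2(CPM + 0.5) scale, fold changes of low genes come out too small. Of all genes tested, 21.8% were called higher and 24.3% lower (46.1% together), and the median log2 fold change was −0.03. With division by library totals in place of the deposited scaling, that median moved to 0.17 and the share of called genes that were higher moved from 47.3% to 72.1%. Cdkn1a, which encodes the cell cycle inhibitor p21, rose from 289.9 ± 40.5 to 1038 ± 21.4 CPM (SD, n = 3 each), and Mki67, a gene of dividing cells, fell from 158 ± 78.6 to 12.7 ± 5.49 CPM. Cdkn2a, the gene of the cell cycle inhibitor p16, had 85.5 ± 38.2 CPM in control and 90.0 ± 23.2 CPM in senescent cultures (log2 fold change 0.13, limma adjusted p = 0.765), and the groups overlapped. By qPCR, the study reports higher p16 in etoposide-treated than in control FAPs, and the values here are per gene, not per transcript. All 6 FAP markers were present in all 6 libraries. Ly6a (SCA-1) rose from 372 ± 132 to 625 ± 76.0 CPM (log2 fold change 0.81, limma adjusted p = 0.0393, and a log2 fold change of 0.47 without control replicate 2). Ly6a missed the threshold without senescent replicate 1 (limma adjusted p = 0.0956), 2 (0.0670) or 3 (0.122) and in limma without a variance trend (0.0578). Cd34 rose from 22.5 ± 3.97 to 70.1 ± 17.4 CPM and Dcn, encoding decorin, from 62.3 ± 33.6 to 197 ± 21.2 CPM (limma adjusted p = 6.99e-04 and 0.00465). Col1a1 fell from 15545 ± 5576 to 3116 ± 876 CPM (limma adjusted p = 0.00150), and Pdgfra and Pdgfrb were not called. Control replicate 2 stood apart from the other controls, with the highest Mki67 (247 CPM, against 125 and 101 CPM), the lowest Pdgfra, Ly6a and Col1a1, and a larger chi-square per gene against control replicates 1 and 3 (154.5 and 108) than these had against each other (43.0). Summed markers of other muscle cells were 18.0 to 38.4 CPM in control and 22.2 to 29.2 CPM in senescent cultures for endothelium (4 of 5 genes), a sum made up mostly of Tek. Pecam1 was called higher (0.706 to 1.70 CPM) and Kdr lower (4.05 to 2.20 CPM). Pecam1 had 0.467 CPM in control replicate 3, so it could pass the filter of 0.5 CPM in 3 libraries only with a senescent culture. For muscle cells the sum, of Des and Itga7, was 14.3 to 19.3 CPM in control and 23.4 to 30.2 CPM in senescent cultures. Itga7, the gene of α7-integrin, was called higher (11.1 to 20.2 CPM, limma adjusted p = 0.00771), and Des was not called (limma adjusted p = 0.415). Pax7, Myod1, Myog and Myf5 were not among the 16894 genes with values. In bulk RNA, fewer cells of a type and less RNA per cell cannot be told apart.

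The 8 members with an entry in the RefSeq promoter table (GRCm38.p6), all but Gclc and Hmox1, were searched on both strands, from 250 bases before to 50 bases after each of 11 annotated start sites. The ARE core was spelled TGACNNNGC, and the form bound by NRF2 with a small MAF was spelled TGANTCAGC, which contains the AP-1 letters TGANTCA. Either form was found in 5 members. TGANTCAGC is rare, in 1.19% of 32851 promoters, and was found in Srxn1 and Me1. TGACNNNGC is common, in 12.4% of promoters, and besides Me1 it was found in Nfe2l2, Gclm and Txnrd1, and in Srxn1 after the start site. These shares are per promoter, whereas a member was counted if any of its start sites had a match, so they are not on the same footing. The sequences below show where the matches lie in these members, each 5′ to 3′ on the strand of the gene, with the matched letters in capitals. The Srxn1 stretch shows an AP-1 match that starts 102 bases before the start site, followed by TGANTCAGC at 45 bases, and the match in Me1 begins 6 bases before the start site and runs across it. In Gclm and Txnrd1 the match reads on the opposite strand, and in Txnrd1 it belongs to 1 of 3 annotated start sites. The match in Me1 belongs to 1 annotated start site and is absent at the other.
Srxn1, chr2:152105402-152105507, plus strand: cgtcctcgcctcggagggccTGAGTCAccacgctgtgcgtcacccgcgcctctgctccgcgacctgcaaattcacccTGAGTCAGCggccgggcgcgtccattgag
Me1, chr9:86695902-86695930, minus strand: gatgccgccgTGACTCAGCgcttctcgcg
Nfe2l2, chr2:75704875-75704913, minus strand: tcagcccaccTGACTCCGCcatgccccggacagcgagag
Gclm, chr3:122245403-122245451, plus strand: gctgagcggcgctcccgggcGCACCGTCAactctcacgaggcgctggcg
Txnrd1, chr10:82859094-82859142, plus strand: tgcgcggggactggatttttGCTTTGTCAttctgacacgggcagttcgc
A match is a description of these letters and not evidence of binding. Windows with a match were found both in members that rose (Nfe2l2, Gclm and Srxn1) and in members that missed the threshold (Txnrd1 and Me1).

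Of the 10 members, 6 were higher in senescent FAPs and 0 lower at the adjusted p under 0.05, where 21.8% of all genes were higher and 24.3% lower. The 6 were Hmox1, Nqo1, Gclc, Gclm, Srxn1 and Nfe2l2, and in each of them all 3 senescent cultures lay above all 3 control cultures, as 26.5% of all genes did, while 30.9% of all genes had every senescent culture below every control. Me1, Txnrd1, Keap1 and Slc7a11 missed the threshold, and in each of them the groups overlapped. The median log2 fold change of the 10 members was 0.58. Without control replicate 2 the number called higher was 7, and without senescent replicate 2 or 3 it was 5. It was 8 with division by library totals, with array weights or with a fit blocked on replicate number. With a log2 fold change above 1 at p under 0.01 before adjustment, passed by 6.93% of all genes (3.9% in the other direction), 2 members were higher, Hmox1 and Nqo1, and 0 lower.

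**Figure D1:**
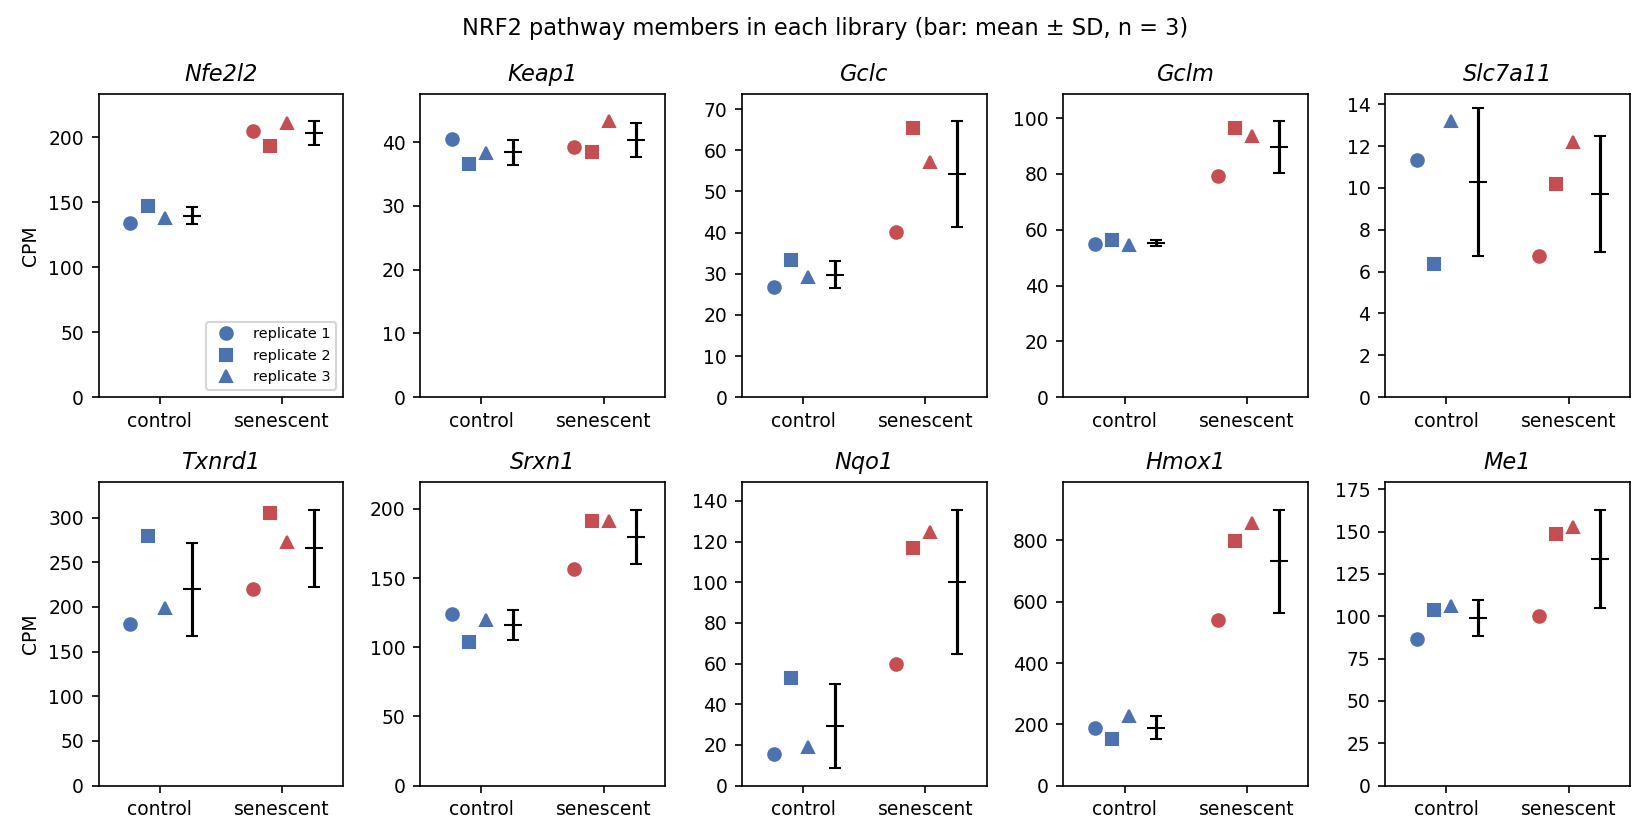
Each panel plots the CPM of 1 member (vertical axis, from 0) in the 3 control (blue) and 3 senescent (red) libraries, with symbols for replicates 1 to 3 and black bars for the mean ± SD. Nfe2l2, Gclc, Gclm, Srxn1, Nqo1 and Hmox1 show no overlap between groups, while control replicate 2 stands above the other controls for Nqo1 (53.0 CPM) and Txnrd1 (279 CPM).

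Of NRF2 and its inhibitor, Nfe2l2 rose and Keap1 was not called. Nfe2l2 (chromosome 2, 75675513 to 75704663) had 134, 147 and 138 CPM in control replicates 1, 2 and 3, and 205, 193 and 211 CPM in senescent replicates 1, 2 and 3. The senescent cultures were all above the controls, and the spread within each group was small. The change was 1.46-fold between the means, a log2 fold change of 0.54 (standard error, SE, 0.07; limma adjusted p = 0.00108). Keap1 (chromosome 9, 21229730 to 21239332) had 40.5, 36.5 and 38.4 CPM in control and 39.3, 38.4 and 43.3 CPM in senescent replicates 1 to 3. The groups overlapped, and the log2 fold change of 0.07 was smaller than its standard error of 0.08 (limma adjusted p = 0.535). Division by library totals gave Keap1 a log2 fold change of 0.28 (limma adjusted p = 0.0240), against a shift of the median of all genes to 0.17. The ratio of Nfe2l2 to Keap1 within a library does not depend on the scaling. Its log2 value was 1.72, 1.99 and 1.83 in control and 2.37, 2.32 and 2.27 in senescent replicates 1 to 3, without overlap. The mean difference of 0.47 had a two-sided exact permutation p of 0.1, the smallest that 3 cultures against 3 allow, and 0.333 after adjustment over 5 ratios. Within same-numbered cultures the differences were 0.65, 0.33 and 0.44.

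Around NRF2, 17 genes of its control were listed, and 16 were tested: 4 were higher, 4 lower and 8 not called, which is 25% each way against 21.8% and 24.3% of all genes. Without senescent replicate 2 or 3 the number called higher was 2. The median log2 fold change of the list was −0.04, and it was positive with division by library totals (0.17), with quantile normalization (0.06) and without control replicate 2 (0.01). Sqstm1, which encodes p62, an autophagy receptor that competes with NRF2 for KEAP1 and is itself an NRF2 target, rose from 343 ± 22.4 to 601 ± 62.1 CPM (SD, n = 3 each), a log2 fold change of 0.81 (limma adjusted p = 8.94e-04). Bach1, a repressor that occupies AREs, had 54.0, 50.8 and 53.0 CPM in control and 40.7, 37.8 and 40.8 CPM in senescent replicates 1 to 3. All senescent values of Bach1 were below the controls, and the log2 fold change was −0.40 (SE 0.07, limma adjusted p = 0.00396), or −0.19 (limma adjusted p = 0.0595) with division by library totals. Syvn1, which encodes the ubiquitin ligase HRD1 that can also target NRF2, fell by 0.71 on the log2 scale (limma adjusted p = 0.00272). Of the small MAF genes, whose proteins are the partners of both NRF2 and BACH1, Mafk rose by 0.75 and Maff by 0.48 (limma adjusted p = 0.0146 and 0.0370), while Mafg had a log2 fold change of 0.02 (limma adjusted p = 0.841), or −0.03 without senescent replicate 1. Mafk missed the threshold without senescent replicate 2 (limma adjusted p = 0.0571) or 3 (0.0610). Maff missed it without control replicate 1 (0.0993) or 3 (0.0598) and without senescent replicate 2 (0.121) or 3 (0.127), and also in limma without a variance trend (0.0598). The ligase genes Cul3, Rbx1 and Cul1 were not called, at log2 fold changes of −0.03, −0.10 and −0.06 that were positive with division by library totals (0.19, 0.11 and 0.15). Btrc missed the threshold too (log2 fold change 0.26, limma adjusted p = 0.0670) but passed it in a fit blocked on replicate number (0.0360) and in 6 other alternatives (DESeq2, edgeR, array weights, and scaling by library totals, median of ratios or quantiles), while Skp1a rose by 0.34 (limma adjusted p = 0.0111). Dpp3 and Palb2, whose proteins bind KEAP1, fell by 0.42 and 0.91 (limma adjusted p = 0.00490 and 0.0175). Dpp3 missed the threshold with division by library totals (0.0603), and Palb2, at a mean of 3.42 ± 0.839 CPM in control cultures, missed it without senescent replicate 1 (0.0523) or 2 (0.0695).

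**Figure D2:**
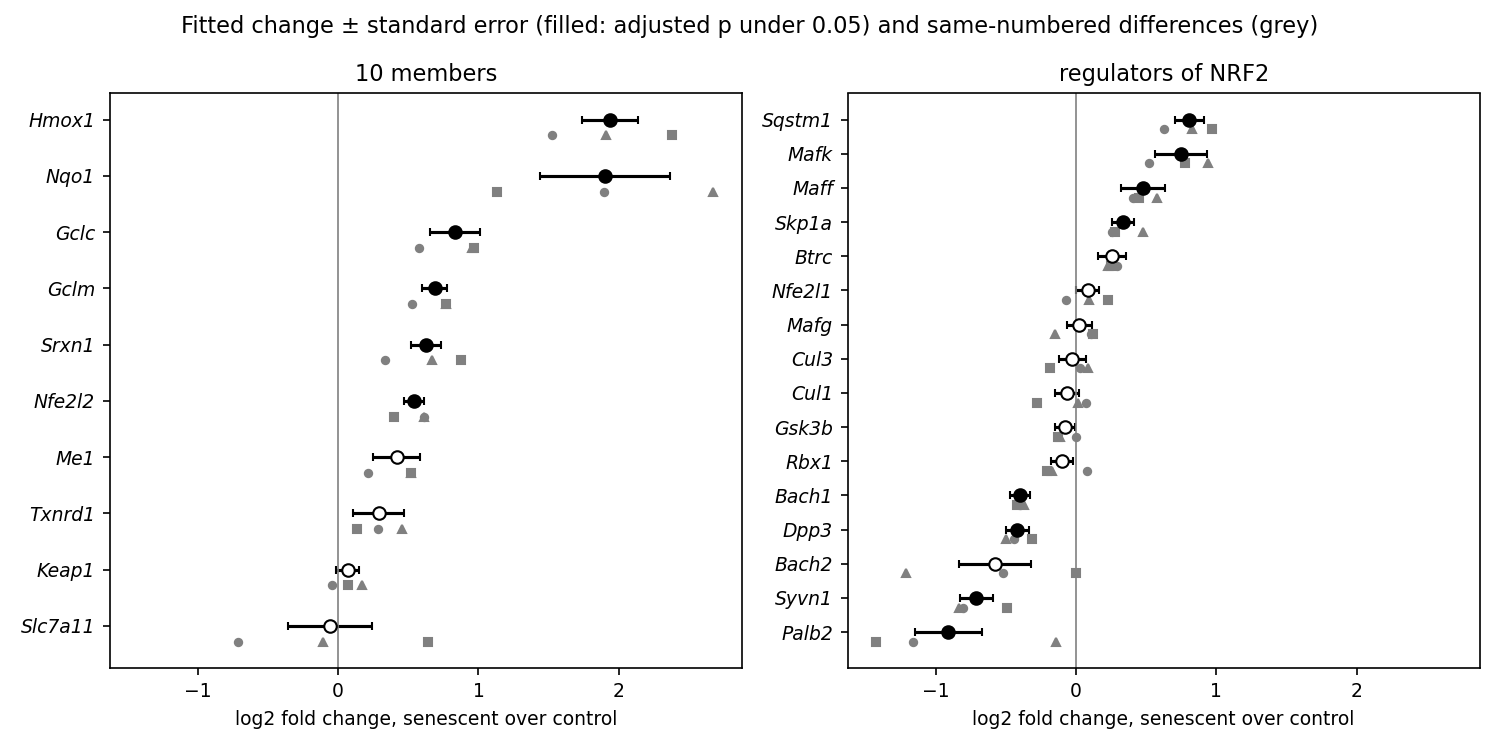
The horizontal axis is the log2 fold change of senescent over control FAPs from limma, with its standard error, for the 10 members (left) and 16 genes that regulate NRF2 (right). Filled points have an adjusted p under 0.05, and grey symbols give the difference between same-numbered cultures (circle, square and triangle for replicates 1, 2 and 3). Hmox1 (1.94) and Nqo1 (1.90) lie farthest to the right among the members, and Nqo1 has the widest error.

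Genes of glutathione synthesis were split. GCLC and GCLM are the catalytic and the modifier subunit of glutamate-cysteine ligase, which carries out the rate-limiting step. Gclm (chromosome 3, 122245487 to 122267215) had 54.7, 56.5 and 54.5 CPM in control and 79.1, 96.4 and 93.4 CPM in senescent replicates 1 to 3. Control cultures lay within 2 CPM of each other, and all senescent cultures were above them. The log2 fold change was 0.69 (SE 0.09, limma adjusted p = 9.91e-04). Gclc (chromosome 9, 77754535 to 77794489) had 26.7, 33.2 and 29.2 CPM in control and 40.1, 65.4 and 57.1 CPM in senescent replicates 1 to 3. Again the groups did not overlap, with senescent replicate 1 nearest to the controls, and the log2 fold change was 0.83 (SE 0.18, limma adjusted p = 0.00733). The ratio of Gclc to Gclm overlapped between the groups, and the mean log2 difference of 0.14 did not pass the test (two-sided exact permutation p = 0.4, adjusted p = 0.5). It was 0.08 without control replicate 1, 0.26 without senescent replicate 1 and 0.05 without senescent replicate 2, and same-numbered cultures differed by 0.05, 0.20 and 0.18.

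Slc7a11 encodes xCT, the transport subunit of the cystine importer that feeds glutathione synthesis with cysteine. In contrast to Gclc and Gclm, Slc7a11 (chromosome 3, 50364936 to 50499087) had 11.3, 6.35 and 13.2 CPM in control and 6.73, 10.2 and 12.2 CPM in senescent replicates 1 to 3. Those values came from 334 to 735 reads per library and overlapped throughout. The log2 fold change was −0.06 (SE 0.30, limma adjusted p = 0.884), and same-numbered cultures differed by −0.71, 0.64 and −0.11. The change was positive without control replicate 1 (0.04), control replicate 3 (0.14) or senescent replicate 1 (0.17) and with division by library totals (0.14), and it was −0.36 without control replicate 2. The ratio of Slc7a11 to Gclc had a mean log2 value of −1.54 in control and −2.43 in senescent cultures, and control replicate 2 (−2.30) fell within the senescent range of −2.62 to −2.18. That difference of −0.89 did not pass the test (two-sided exact permutation p = 0.2, adjusted p = 0.333). It was −1.27 without control replicate 2, and same-numbered cultures differed by −1.29, −0.32 and −1.07, all with the ratio lower in the senescent culture. The Slc7a11 promoter held none of the ARE spellings above. It held a pair of matches to TGATGNAA, the C/EBP-ATF response element through which ATF4 acts, which is found in 3.97% of promoters, at a start site inside the annotated gene. They are shown in capitals, the first 66 bases and the other 47 bases before the start site, facing each other, and whether they bear on any value given here was not tested.
Slc7a11, chr3:50443633-50443699, minus strand: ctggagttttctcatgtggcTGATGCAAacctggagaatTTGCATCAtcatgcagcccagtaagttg
Slc3a2, which encodes the partner subunit of xCT, fell from 203 ± 57.5 to 108 ± 9.03 CPM (SD, n = 3 each), a log2 fold change of −0.87 (limma adjusted p = 0.00988), or −1.12 without control replicate 2. Chac1, which encodes a glutathione-degrading enzyme, fell from 26.4 ± 16.5 to 3.57 ± 0.596 CPM (log2 fold change −2.53, limma adjusted p = 0.00318), or −3.06 without control replicate 2.

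A list of 23 other genes of glutathione synthesis and turnover had 22 tested. Of these, 6 were higher (27.3%), 5 lower (22.7%) and 11 not called, near the 21.8% and 24.3% of all genes, with a median log2 fold change of 0.26. Cbs, among the 6, had 0.670, 0.247 and 0.574 CPM in control replicates 1 to 3. It could pass the filter only with a senescent culture, so the filter bears on the share called higher. Gss, which encodes the enzyme of the second step of glutathione synthesis, rose from 34.3 ± 1.53 to 56.6 ± 5.14 CPM (log2 fold change 0.71, limma adjusted p = 8.77e-04). Glrx, encoding glutaredoxin, rose by 1.118 on the log2 scale (limma adjusted p = 3.07e-04), and Gpx7, a peroxidase of the endoplasmic reticulum, fell by 0.54 (limma adjusted p = 0.00158). The number called higher was 14 with division by library totals, 11 with array weights, 10 in DESeq2, with quantile normalization or without control replicate 2, and 3 without senescent replicate 2.

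Glutathione transferases, which couple glutathione to electrophiles, rose more often. Of 20 tested, 15 were higher, 1 lower and 4 not called, or 75.0% higher where 21.8% of all genes were, and the median log2 fold change was 0.96. Gsta3 was under 0.5 CPM in all 3 controls and so could pass the filter only through the senescent cultures. Without it 14 of 19 were higher (73.7%). Gstm6 and Gsto2, still among the 14, also could pass only with a senescent culture. Gstm6 had 0.247 CPM in control replicate 2, and Gsto2 had 0.269 CPM in control replicate 3, so the filter still bears on this share. Mgst1, a membrane-bound transferase, had 27.9, 25.6 and 29.2 CPM in control and 83.8, 77.2 and 83.1 CPM in senescent replicates 1 to 3. It was higher by 1.54 on the log2 scale (SE 0.08, limma adjusted p = 6.97e-05). Gstt3 rose from 9.45 ± 0.199 to 19.3 ± 0.685 CPM (log2 fold change 0.99, limma adjusted p = 3.50e-04). Gsta3 was close to 0 in control cultures (0, 0.0761 and 0.0180 CPM) and had 1.25, 2.09 and 1.91 CPM in senescent replicates 1 to 3. The gene that fell was Gstz1, by 0.37 (limma adjusted p = 0.0241), a call that was lost with division by library totals (0.233), without control replicate 1 (0.0715) or 3 (0.0821) and without senescent replicate 2 (0.0753) or 3 (0.0818). Genes of this family are close paralogs, between which reads may have been split in counting, so the values of single members are uncertain.

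In the thioredoxin arm, 1 of the 2 members rose. Srxn1 encodes sulfiredoxin, which restores overoxidized peroxiredoxins. It (chromosome 2, 152105524 to 152111376) had 124, 104 and 119.7 CPM in control and 157, 191 and 191 CPM in senescent replicates 1 to 3. The groups did not overlap, and the log2 fold change was 0.63 (SE 0.11, limma adjusted p = 0.00302). Txnrd1 encodes the cytosolic thioredoxin reductase, which passes electrons from NADPH to thioredoxin. Txnrd1 (chromosome 10, 82833951 to 82897724) had 181, 279 and 199 CPM in control and 220, 305 and 272 CPM in senescent replicates 1 to 3. Control replicate 2 exceeded both senescent replicates 1 and 3, and the log2 fold change was 0.29 (SE 0.18, limma adjusted p = 0.225). Each senescent culture was above its same-numbered control, by 0.28, 0.13 and 0.45, and a fit blocked on replicate number gave a limma adjusted p of 0.0263. Without control replicate 2 the log2 fold change was 0.47 (limma adjusted p = 0.0211), and with array weights it was 0.51 (limma adjusted p = 0.00289). The ratio of Txnrd1 to Srxn1 overlapped between groups (mean log2 difference −0.34, two-sided exact permutation p = 0.2, adjusted p = 0.333). Leaving out control replicate 2 gave a difference of −0.08 and leaving out control replicate 1 gave −0.52. It was −0.05, −0.74 and −0.22 within same-numbered cultures.

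The other genes of thioredoxin, peroxiredoxins, sestrins and methionine sulfoxide reductases had shares near those of all genes (21.8% higher and 24.3% lower). Of 19 tested, 4 were higher (21.1%), 6 lower (31.6%) and 9 not called, and 3 were lower without senescent replicate 2 or 3. With division by library totals 7 were higher and 3 lower. Their median log2 fold change of −0.04 turned positive with division by library totals (0.17), without control replicate 1 (0.05) and without senescent replicate 3 (0.01). Prdx1, a cytosolic peroxiredoxin and a known NRF2 target, rose from 446 ± 94.6 to 946 ± 122.9 CPM (SD, n = 3 each), a change of 1.095 on the log2 scale (limma adjusted p = 0.00173). Prdx4, the peroxiredoxin of the endoplasmic reticulum, fell by 0.81 (limma adjusted p = 0.00234), and Sesn3, a sestrin, rose by 0.86 (limma adjusted p = 0.00167). Among enzymes that remove superoxide and hydrogen peroxide, Sod3, the extracellular superoxide dismutase, rose from 89.7 ± 7.93 to 180.3 ± 26.8 CPM and Cat, encoding catalase, from 56.5 ± 5.67 to 79.9 ± 4.58 CPM (limma adjusted p = 6.99e-04 and 0.00424). Sod1, Sod2 and the copper chaperone gene Ccs were not called, with log2 fold changes of −0.15, −0.10 and 0.17. With division by library totals these were 0.07, 0.11 and 0.38, and Ccs then passed the threshold (limma adjusted p = 0.0389).

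Quinone and heme detoxification held the largest rises among the members. Hmox1 (chromosome 8, 75093618 to 75100593) encodes heme oxygenase, which splits heme into biliverdin, iron and carbon monoxide. It had 188, 153 and 227 CPM in control and 541, 799 and 857 CPM in senescent replicates 1 to 3. Every senescent culture was far above the highest control, and the means differed 3.86-fold. The log2 fold change was 1.94 (SE 0.20, limma adjusted p = 4.37e-04), and it lay between 1.79, without control replicate 2, and 2.15, with division by library totals, over the 19 alternatives run. Macrophages also express Hmox1, and although CD45-positive cells had been depleted, 3 of 6 leukocyte markers were tested. Cd68, Lyz2 and Cd53 were all called higher, and the summed level of the listed markers was 3.84 to 7.61 CPM in control and 17.8 to 24.8 CPM in senescent cultures. Ptprc, Adgre1 and Tyrobp were not among the 16894 genes with values. The part of such cells in the rise of Hmox1 was not tested.

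Nqo1 encodes a quinone reductase and is often used as a readout of NRF2 activity. Nqo1 (chromosome 8, 107388225 to 107403205) had 15.7, 53.0 and 19.1 CPM in control and 59.7, 117 and 125 CPM in senescent replicates 1 to 3. All senescent cultures were above all controls, but the gap between control replicate 2 and senescent replicate 1 was narrow. The log2 fold change was 1.90 with an SE of 0.46, the largest of the members (limma adjusted p = 0.0127). Within same-numbered cultures the rise was 1.90, 1.13 and 2.67 on the log2 scale. The log2 fold change was 1.57 without control replicate 1 and 2.43 without control replicate 2, the ends of its range when 1 library was left out. Limma's adjusted p was 0.0515 without senescent replicate 2 and 0.0560 without senescent replicate 3. Whether the high Mki67 of control replicate 2 bears on its Nqo1 was not tested. The ratio of Hmox1 to Nqo1 had a log2 value of 3.54, 1.52 and 3.54 in control and 3.17, 2.77 and 2.78 in senescent replicates 1 to 3. Its mean difference of 0.04 did not pass the test (two-sided exact permutation p = 1, adjusted p = 1) and was −0.64 without control replicate 2 and −0.10 without senescent replicate 1.

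**Figure D3:**
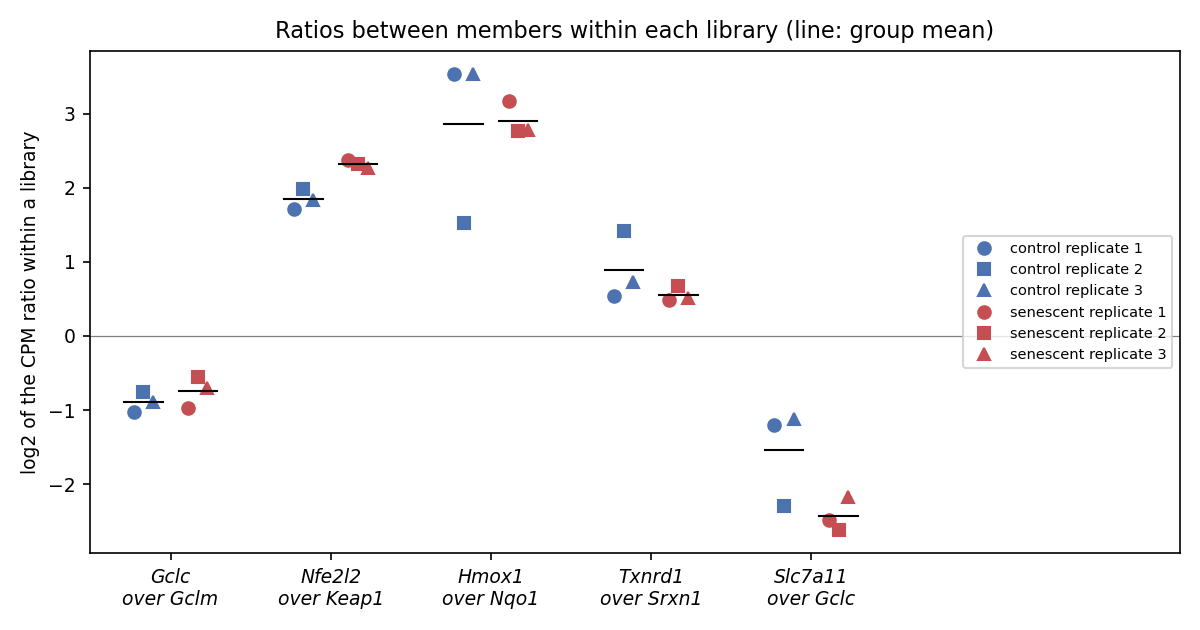
The vertical axis is the log2 of the ratio between the CPM values of 2 members in the same library, for 5 ratios, in control (blue) and senescent (red) cultures with symbols for replicates and lines for group means. The ratio of Nfe2l2 to Keap1 separates the groups (1.72 to 1.99 against 2.27 to 2.37), and the other ratios overlap, with control replicate 2 apart in the ratios of Hmox1 to Nqo1, Txnrd1 to Srxn1 and Slc7a11 to Gclc.

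A list of genes of heme and iron handling beside Hmox1 had 16 tested. Of these, 6 were higher (37.5%), 5 lower (31.2%) and 5 not called, against 21.8% and 24.3% of all genes, and 2 were lower with division by library totals. Their median of 0.02 was −0.04 without senescent replicate 3. The ferritin genes Fth1 and Ftl1, whose proteins store iron and which are NRF2 targets, rose from 551 ± 64.8 to 1332 ± 210.4 CPM and from 1619.9 ± 215 to 2710.3 ± 228 CPM (SD, n = 3 each), with log2 fold changes of 1.27 and 0.75 (limma adjusted p = 5.86e-04 and 0.00484). Reads of ferritin genes may be shared with processed pseudogenes, so these values are uncertain. Slc48a1, encoding a transporter that releases heme from the lysosome, rose from 73.6 ± 6.93 to 172 ± 18.8 CPM (log2 fold change 1.22, limma adjusted p = 2.67e-04). Tfrc, the transferrin receptor that brings iron into the cell, had 67.4, 67.4 and 61.5 CPM in control and 19.5, 23.5 and 24.1 CPM in senescent replicates 1 to 3, a log2 fold change of −1.53 (SE 0.10, limma adjusted p = 1.31e-04). The biliverdin reductase genes went opposite ways, with Blvrb higher by 0.82 and Blvra lower (limma adjusted p = 0.00300 and 0.00729), although Blvra missed the threshold with division by library totals (0.0556). Aco1, whose protein is also the iron regulatory protein IRP1, fell by 0.84 (limma adjusted p = 2.52e-04). Hmox2, the constitutive heme oxygenase gene, had a log2 fold change of −0.04 (limma adjusted p = 0.671), or 0.17 with division by library totals.

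Me1, encoding cytosolic malic enzyme, which makes NADPH from malate, was the remaining target. Me1 (chromosome 9, 86581363 to 86695914) had 86.8, 104 and 106 CPM in control and 100.5, 148 and 153 CPM in senescent replicates 1 to 3. Senescent replicate 1 lay within the controls, and the log2 fold change was 0.42 (SE 0.17, limma adjusted p = 0.0746). Each senescent culture exceeded its same-numbered control, by 0.21, 0.52 and 0.52, and a fit blocked on replicate number gave a limma adjusted p of 0.00711. Without senescent replicate 1 the log2 fold change was 0.61 (limma adjusted p = 0.00605), and Me1 also passed the threshold with division by library totals, with quantile normalization, with array weights and in DESeq2 (adjusted p = 0.0195, 0.0315, 0.00630 and 0.0211).

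Of 19 other genes listed under NADPH supply and tested, 5 were higher, 5 lower (26.3% each way, near the 21.8% and 24.3% of all genes) and 9 not called. The number called higher was 2 without control replicate 1, 1 without control replicate 3, and 0 without senescent replicate 2 or 3. The median log2 fold change of the list, −0.09, became 0.12 with division by library totals. Whether each of the listed enzymes makes NADPH in these cells was not tested. The smallest p values belonged to mitochondrial enzymes that fell. Idh2, the mitochondrial isocitrate dehydrogenase, went from 57.0 ± 5.30 to 14.02 ± 2.21 CPM, Mthfd2, of the folate pathway, from 96.5 ± 12.4 to 27.3 ± 4.86 CPM, and Me2, the mitochondrial malic enzyme, from 54.6 ± 3.77 to 30.6 ± 0.963 CPM (SD, n = 3 each). Their log2 fold changes were −1.99, −1.81 and −0.83 (limma adjusted p = 1.31e-04, 2.05e-04 and 3.63e-04).

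A broader list of 37 known NRF2 targets outside the members was read in the same fit, with 32 tested. Of these, 20 were higher (62.5%), 4 lower (12.5%) and 8 not called, and the median log2 fold change was 0.58, against −0.03 for all genes. Aldh3a1, among those called higher, had 0, 1.45 and 0.233 CPM in control replicates 1 to 3. It could therefore pass the filter only with senescent cultures, so the filter bears on the 62.5%. Its call was lost in DESeq2 (adjusted p = 0.180), in edgeR (0.0641), and in limma without senescent replicate 2 (0.0582) or 3 (0.0597). Ephx1, encoding microsomal epoxide hydrolase, had 162, 180 and 189 CPM in control and 427, 448 and 489 CPM in senescent replicates 1 to 3, a log2 fold change of 1.36 (SE 0.09, limma adjusted p = 1.31e-04). Slc48a1 and Gsta4 (log2 fold change 0.93, limma adjusted p = 3.63e-04) had the next smallest p values. The targets called lower were Abcc1, Abcb6, Blvra and Txn1, and the number called lower was 2 without control replicate 1 or 3, 1 without senescent replicate 2 or 3, and 0 with division by library totals. The list shares genes with the lists of glutathione turnover, transferases, heme and iron, NADPH, thioredoxin and NRF2 control. Over the 130 distinct genes tested of all 8 lists, 51 were higher (39.2%), 27 lower (20.8%) and 52 not called, against 21.8% higher and 24.3% lower among all genes. The 51 include Gsta3, Gstm6, Gsto2, Aldh3a1 and Cbs, which could pass the filter only with senescent cultures, so the filter bears on this share too.

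**Figure D4:**
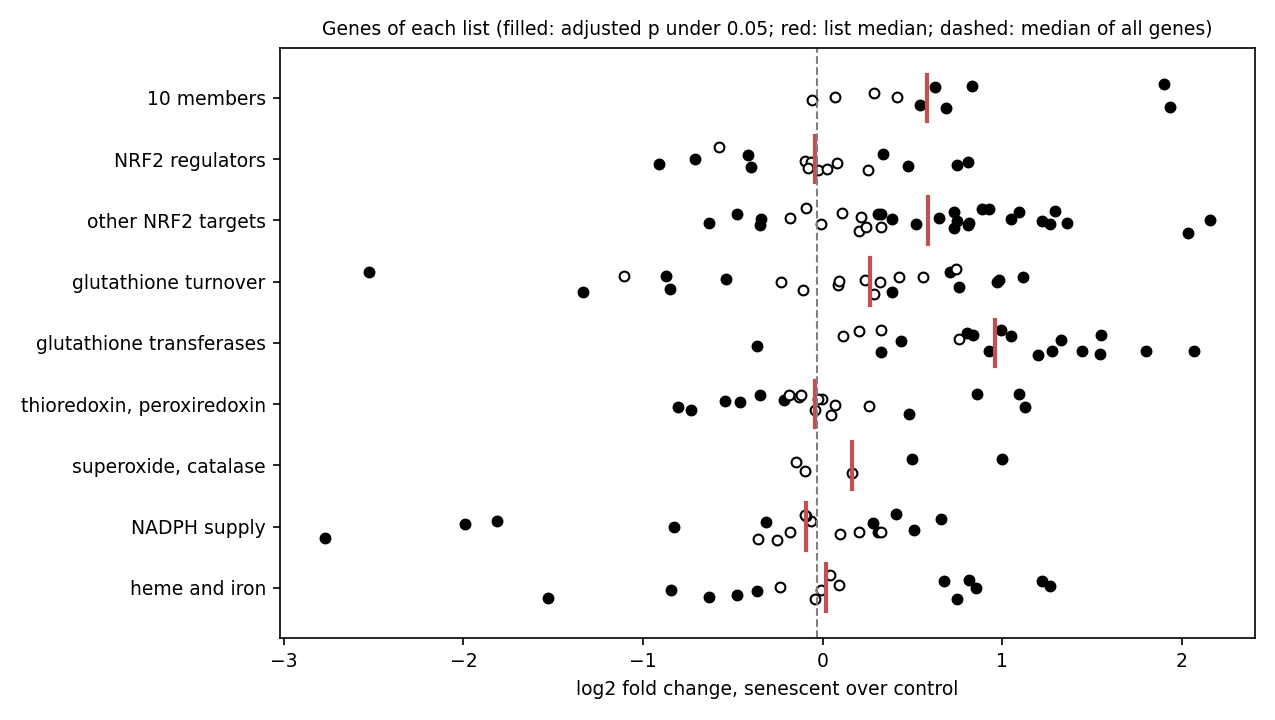
Each point is a gene tested, placed by its log2 fold change of senescent over control FAPs (horizontal axis) and grouped by list, filled where the adjusted p is under 0.05. Red lines mark list medians, which are 0.58 for the members, 0.58 for other NRF2 targets and 0.96 for glutathione transferases, and the dashed line marks the median of all genes (−0.03).

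The order of the cultures within each group was compared over the members. Among senescent cultures, replicate 1 had the lowest value of 8 members, that is of all but Nfe2l2 and Keap1, and the highest of 0. Senescent replicate 3 had the highest value of 6 members and replicate 2 of 4. Among controls, replicate 2 had the highest value of 5 members (Nfe2l2, Gclc, Gclm, Txnrd1 and Nqo1) and the lowest of 4 (Keap1, Slc7a11, Srxn1 and Hmox1).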

How the data were processed

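The authors prepared stranded mRNA libraries (TruSeq), sequenced them on an Illumina HiSeq, counted reads per gene and scaled the counts with edgeR 3.10 (R 3.6.0; build mm10, per the submitters' processing notes). The deposited signal is CPM of the effective library size, 1 value per gene and library, replicates not pooled. The aligner, counter, annotation and low-count filter are not given in the sources used here, nor is whether strand was used in counting. Columns summed to 919819 to 1090570, and whole reads were recovered for 100% of values (within 0.01 of a whole read). A line naming no gene, with 0.00409% to 0.00699% of reads, was left out of 16895 lines.

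Groups and replicate numbers came from sample titles. The main test was limma 3.58.1 (R 4.3.3) with a variance trend on log2(CPM + 0.5), two-sided, for genes that reached 0.5 CPM in 3 or more of 6 libraries. The plan assumed CPM, and the signal deposited here is CPM of a scaled library size, so the test was kept. Replicate libraries differed by 15.1 or more in chi-square per gene, so none repeats another. Deviations from group means correlated between same-numbered cultures (r = 0.54, 0.31 and 0.21 for replicates 1, 2 and 3, from the data and not the labels). Control replicate 2 and senescent replicate 3 had r = 0.15, and all other pairs of unlike number had a negative r. The main fit and the ratio tests did not use a pairing. A fit blocked on replicate number was run as an alternative, and same-numbered differences are given as a description. Ratios were tested by exact permutation (scipy 1.17.1). Alternatives were pseudocounts of 0.1 and 1, no filter or 2 CPM, library totals, median-of-ratios, quantile normalization, no trend, array weights, a replicate block, each library left out, edgeR 4.0.16 quasi-likelihood and DESeq2 1.42.0 on recovered reads, and a threshold of p under 0.01 with a log2 fold change beyond 1. edgeR on all listed genes was added after the values were seen. The fits were tested on simulated data.

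Members, lists and motifs were chosen with earlier results of these data known. Named genes are the members, regulators, superoxide and catalase genes, markers, the 3 smallest p of each list, and the 3 genes most correlated with Nfe2l2 and with Nqo1. Slc3a2, Chac1, Cbs, Fth1, Ftl1, Hmox2, Gstz1, Gstm6, Gsto2, Aldh3a1, Abcc1, Abcb6, Blvra, Blvrb and Txn1 were named after their values were seen.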

Additional observations from a re-analysis of the deposited data

How the results depend on the processing

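Over 19 alternative fits each, 174 of the 190 values of the 10 members kept their direction and their side of the threshold, and Hmox1, Nfe2l2, Gclc, Gclm and Srxn1 did so in all 19. The threshold of p under 0.01 with a log2 fold change beyond 1 is not among the 19. Under it Nfe2l2, Gclc, Gclm and Srxn1 were not called. Of the 19 fits, Nqo1 lost its call in 2 and kept it in 17, while Me1 passed the threshold in 6, Txnrd1 in 3 and Keap1 in 1. The sign of Slc7a11 turned with division by library totals (0.14) and among the 6 settings that leave out 1 library, where it ranged from −0.36 to 0.17. The ratio of Hmox1 to Nqo1 ranged from −0.64 to 0.37 with 1 library left out and turned negative without control replicate 2 (−0.64) or senescent replicate 1 (−0.10). With 1 library left out, 2130 to 3405 genes were called higher, lowest without senescent replicate 2, and 2416 to 3875 lower. Division by library totals gave 4992 higher and 1929 lower, and the threshold of p under 0.01 with a log2 fold change beyond 1 gave 1024 and 576 (main: 3218 and 3592) and 2 members higher. With the replicate block 3576 genes were higher and 3947 lower, 8 members were called higher, Txnrd1 and Me1 among them, and the block ended no call of a member. With 1 library left out, 5 to 7 members were called higher. The median of the NRF2 regulators turned positive with library totals (0.17) and quantile normalization (0.062), and ranged from −0.102 to 0.0071 with 1 library left out. That of the thioredoxin genes was 0.17 with library totals and −0.117 to 0.0535 with 1 library left out, that of the NADPH genes 0.12 with library totals, and that of the heme and iron genes −0.0072 with a filter at 2 CPM and −0.0448 to 0.0681 with 1 library left out. Of 304 counts of list genes called higher or lower, 33 moved by over 1.5 times. The cause of these moves was not tested. Slc7a11 had the fewest reads of the members, 334 in the library where it was lowest.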

Other observations

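The genes most like Nfe2l2 over the 6 libraries, by Pearson's r of log2(CPM + 0.5) among 9100 genes with a mean of at least 10 CPM, were Cd80 (r = 0.999), S100a1 (0.998) and Anxa8 (0.997). Cd80, a costimulatory ligand, had 16.6, 22.9 and 20.1 CPM in control and 81.4, 67.5 and 86.3 CPM in senescent replicates 1 to 3, with the same order of cultures in each group as Nfe2l2 and no overlap between groups. The genes most like Nqo1 were Ifi47 (r = 0.998), an interferon-induced GTPase gene, Abhd12 (0.997) and Kif16b (0.996). Ifi47 had 2.90, 8.04 and 3.36 CPM in control and 9.49, 18.1 and 20.3 CPM in senescent replicates 1 to 3, so that control replicate 2 was the highest control and senescent replicate 1 the lowest senescent culture for Ifi47 as for Nqo1. Among the members, r with Nqo1 was 0.94 for Gclc, 0.90 for Gclm, 0.89 for Txnrd1 and −0.23 for Slc7a11. The points share the difference between the groups and the same libraries, and the values are given as a description.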
